A study of Mus musculus with 6 samples.

Results

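The histone genes described here encode linker histones and replacement variants of the core histones, measured in hippocampal RNA of p300+/- mice, which are heterozygous for a p300 deficiency. The members were chosen by gene symbol, with the p300+/- against wild-type values of these same arrays already known. They comprise the linker histone genes Hist1h1c (now H1f2), H1f0 and H1fx (H1f10), the H2A variant genes H2afx (H2ax), H2afy (Macroh2a1), H2afz (H2az1) and H2afv (H2az2), and the H3.3 gene H3f3b. Of these 8 genes, 7 were read by probe sets that the platform annotation assigns to a single gene, giving 11 of the 45037 probe sets tested. H1f0 had no such probe set. A further 7 probe sets were annotated to a member together with other genes, 5 of them with H3f3b and 2 with H2afz, and were not used.

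Each array carried hippocampal total RNA pooled in equal amounts from 4 females of 3 months on a C57BL/6 background. There were 3 pools of p300+/- heterozygotes and 3 of their wild-type littermates, so 12 animals of each genotype contributed. In bulk tissue, fewer cells of a type and less RNA per cell cannot be told apart. The submitters called the pools of a genotype independent biological replicates.

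Histones package DNA into nucleosomes, and p300 is an acetyltransferase whose substrates include the tails of the core histones. Linker histones bind where DNA enters and leaves the nucleosome and favour compact chromatin. Most core histones are made during DNA replication from transcripts that lack a poly(A) tail, whereas replacement variants are made throughout the cell cycle from polyadenylated transcripts, which lets non-dividing neurons renew their nucleosomes. Turnover of H3.3 and H2A.Z in neurons has been linked to synaptic gene expression and memory.

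RefSeq start regions were held for 7 of the 8 genes in the table used here, build GRCm38.p6. They are shown for the gene with the largest difference between genotypes and for 3 genes whose values moved together or in opposition across the arrays, described further on. Each line gives the 150 bases before the annotated start, and matches were counted in the 250 bases before it. Lines read 5′ to 3′ on the gene's own strand. Capitals mark matches, on either strand, to the H1 box (AAACACA), the CCAAT box (CCAAT), the TATA box (TATAAA), the related run TATATA, the cAMP response element half-site (TGACG) or the GC box (GGGCGG).
Hist1h1c (chr13:23738657-23738806, plus strand): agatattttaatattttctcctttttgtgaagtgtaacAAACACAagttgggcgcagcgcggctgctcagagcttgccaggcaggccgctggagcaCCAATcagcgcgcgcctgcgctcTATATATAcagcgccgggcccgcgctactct
H2afz (chr3:137864337-137864486, plus strand): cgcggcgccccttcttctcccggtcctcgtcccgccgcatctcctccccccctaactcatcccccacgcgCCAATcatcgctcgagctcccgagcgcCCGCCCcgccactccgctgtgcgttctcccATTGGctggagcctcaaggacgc
H2afv (chr11:6444444-6444593, minus strand): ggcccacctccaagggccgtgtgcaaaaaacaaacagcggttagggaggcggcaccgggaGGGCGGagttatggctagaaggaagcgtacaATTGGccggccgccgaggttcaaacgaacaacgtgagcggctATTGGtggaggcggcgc
H2afy (chr13:56135551-56135700, minus strand): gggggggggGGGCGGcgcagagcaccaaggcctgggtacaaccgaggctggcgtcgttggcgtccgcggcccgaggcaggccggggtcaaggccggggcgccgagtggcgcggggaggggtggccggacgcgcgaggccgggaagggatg

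The window before Hist1h1c held the arrangement typical of replication-dependent linker histone genes. In it the H1 box began 112 bases before the start and the CCAAT box 54 bases before, followed by TATATA at 31 and, overlapping it, at 29. In the 250 bases before the start, an H1 box was present in 6.25% of 32851 RefSeq windows, CCAAT in 33.8% and TATATA in 5.25%. The windows of H2afz and H2afv shared CCAAT boxes, 2 and 4 in number, and a single GC box each, a motif in 32.7% of windows. That of H2afy had 2 GC boxes and no CCAAT box. These traits were not particular to the 3 genes. H3f3b also had 4 CCAAT boxes, H1fx had 1 GC box, and H1fx and H1f0 had no CCAAT box. The TGACG half-site, found in 17.8% of windows, was matched among the members only in H3f3b, with 2 matches, while the complete element TGACGTCA (1.55% of windows) was in none of the 7. H3f3b was also the only member with TATAAA, which 12.4% of windows held. These are matches of letters in short windows and the arrays did not measure binding to them.

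Each deposited value is read here as a log2 intensity relative to the median of that probe set over the 6 arrays. It therefore gives differences between arrays but no level. Where the genotypes do not overlap, this centring makes the lowest value of the higher genotype and the highest of the lower genotype equal and opposite. The number format of the values leaves a coarse level class. Of the 11 histone probe sets, 9 were in the highest class (log2 of 8 to 16, 28.1% of all probe sets) and 2, namely 1438204_at of Hist1h1c and 1430357_at of H3f3b, in the class of 4 to 8. Ep300, the targeted gene, was lower in every p300+/- array (-0.26, -0.22 and -0.50) than in any wild-type array (0.22, 0.38 and 0.40), a log2 fold change of -0.66 ± 0.13 (SE). The labels do not say which part of the gene was altered, so whether its probe set reads that part is unknown. Markers of dentate granule neurons (4 of 6 genes) and pyramidal neurons (5 of 6) were in the highest level class, as were all 6 astrocyte genes. The arrays p300+/- 3 and wild-type 2 stood apart from the others, at 43.3 and 55.6 on a first principal component with 52.4% of the variance, against -30.7 to -12.6 for the other 4. Choroid plexus markers were low in wild-type 2 alone, where 11 measured genes averaged -2.27, against -0.14 to 0.33 in the other arrays.

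Over the histone probe sets the differences between genotypes were small. In 8 of 11 the p300+/- mean was higher and in 3 lower, with a median log2 fold change of 0.049 and a range of -0.18 to 0.40. Over all tested probe sets the median was 0.0057 and 51.7% were higher. None of the 11 was called over all probe sets (limma, adjusted p under 0.05), where 0% of all probe sets were called. A single member, 1416101_a_at of Hist1h1c, had an unadjusted p under 0.05 (limma), beside 1.22% of all probe sets. That count was 0 without p300+/- 1, p300+/- 2, wild-type 1 or wild-type 2, and with the replicate number as a block. It was also 0 without both p300+/- 3 and wild-type 2. The same held without _a_at, _s_at and _x_at probe sets, which removes 1416101_a_at itself. With array weights or quantile normalization the count was 2. The 3 p300+/- arrays lay above all 3 wild-type arrays in 4 histone probe sets, beside 3.19% of all probe sets, and below them in none, beside 2.2%. Without overlap in either direction there were thus 4, beside 5.39%. Because the members were chosen with this contrast known, these counts, and the 95% intervals given for single probe sets, are descriptions of the spread and not tests.

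**Figure D1:**
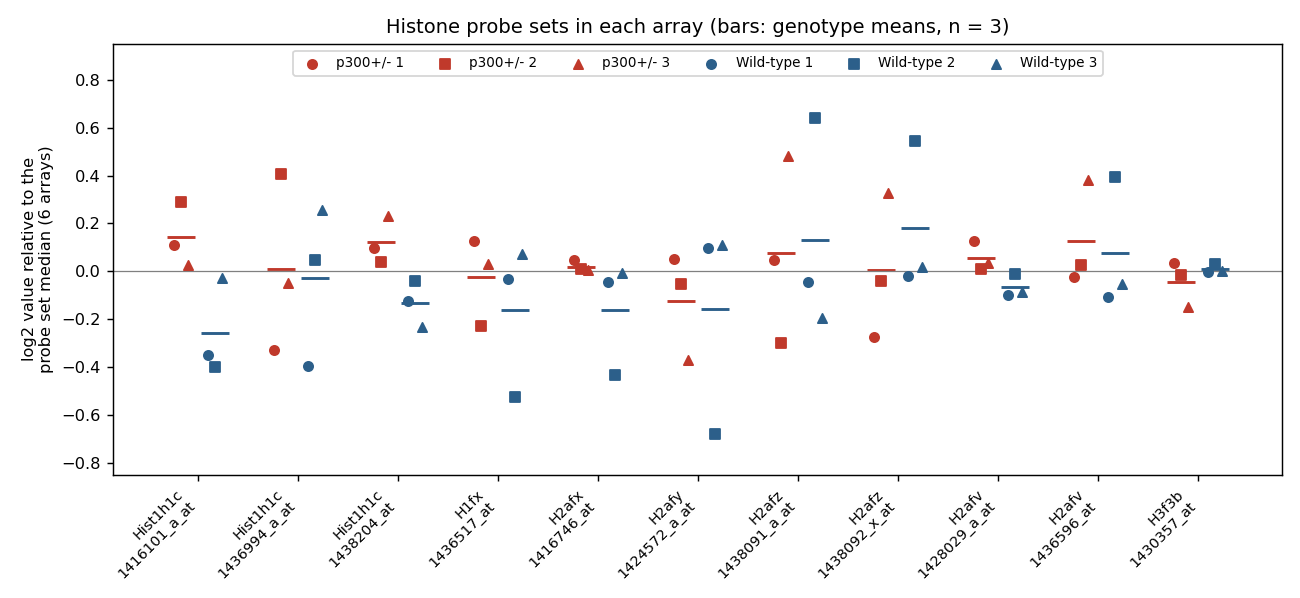
Log2 value of each histone probe set relative to its own median, in each of the 6 arrays (vertical axis), with the probe sets grouped by gene on the horizontal axis. Horizontal bars are genotype means (n = 3). Red and blue points separate completely in 4 probe sets, and the widest spreads, up to 0.94, are those of H2afz.

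Hist1h1c encodes the somatic linker histone H1.2. The upper genotype of its probe set 1416101_a_at was p300+/-, with values of 0.11, 0.29 and 0.027, against -0.35, -0.40 and -0.027 in wild-type pools. The means were 0.14 ± 0.13 and -0.26 ± 0.20 (SD, n = 3 each), a log2 fold change of 0.40 ± 0.14 (SE). This equals 1.32-fold, with a 95% interval of 1.05 to 1.67. The genotypes were separated by 0.053, the distance from p300+/- 3 to wild-type 3, while wild-type 1 and 2 lay well below. The difference stayed between 0.33 and 0.52 with any array left out, and was 0.39 without both p300+/- 3 and wild-type 2.

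A second Hist1h1c probe set, 1438204_at, gave a smaller difference with the same order of genotypes. Its values were 0.098, 0.039 and 0.23 in p300+/- and -0.12, -0.039 and -0.23 in wild-type pools, so the genotypes did not overlap. The log2 fold change was 0.26 ± 0.12 (SE), or 1.19-fold with a 95% interval of 0.987 to 1.44, and ran from 0.20 to 0.30 with an array left out. The third, 1436994_a_at, did not separate the genotypes. It read -0.33, 0.41 and -0.048 in p300+/- and -0.39, 0.048 and 0.26 in wild-type pools. Here the first array of each genotype was low and the overlap was wide. The log2 fold change was 0.040 ± 0.23 (SE), or 1.03-fold with a 95% interval of 0.705 to 1.5. That value changed sign without p300+/- 2 (-0.16) or wild-type 1 (-0.14). The estimates of the 3 probe sets of this gene therefore differed in size, but the wide interval of the third held the estimates of both others. The within-genotype SD was 0.17, 0.098 and 0.35 in the order given.

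H1fx encodes H1.10, a divergent linker histone made outside replication. Its probe set 1436517_at read 0.13, -0.23 and 0.030 in p300+/- and -0.030, -0.52 and 0.071 in wild-type pools. The genotypes overlapped, and the lowest value was that of wild-type 2. The log2 fold change of 0.14 ± 0.19 (SE) became -0.044 without wild-type 2 and -0.071 without that array and p300+/- 3.

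H2afx encodes H2A.X, the variant whose phosphorylated form marks DNA breaks. Its values were tightly grouped in p300+/- pools (0.046, 0.0098 and 0.0050) and were -0.043, -0.43 and -0.0050 in wild-type pools. No overlap was seen, but the gap between genotypes was 0.010, and wild-type 2 stood far below the other 5 arrays. The means were 0.020 ± 0.022 and -0.16 ± 0.24 (SD, n = 3 each), and the log2 fold change was 0.18 ± 0.14 (SE), or 1.13-fold. Without wild-type 2 it was 0.044. Choroid plexus markers were low in that same array, and their part in the value of H2afx was not tested.

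H2afy encodes macroH2A1, a large variant with a C-terminal macrodomain that is found on repressed chromatin, including the inactive X chromosome. Its probe set 1424572_a_at read 0.051, -0.051 and -0.37 in p300+/- and 0.10, -0.68 and 0.11 in wild-type pools. A single array of each genotype was low, p300+/- 3 and wild-type 2, and the genotypes overlapped. The log2 fold change was 0.032 ± 0.24 (SE), with a 95% interval of -0.52 to 0.58. It took the opposite sign after quantile normalization (-0.048), with array weights (-0.11), and without wild-type 2 (-0.23), p300+/- 1 (-0.056), p300+/- 2 (-0.0043) or both p300+/- 3 and wild-type 2 (-0.11).

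H2afz and H2afv encode H2A.Z.1 and H2A.Z.2, nearly identical variants that flank active start sites and are exchanged into nucleosomes by dedicated remodellers. For H2afz, 1438091_a_at read 0.046, -0.30 and 0.48 in p300+/- and -0.046, 0.64 and -0.19 in wild-type pools. The probe set 1438092_x_at read -0.27, -0.039 and 0.33, and -0.018, 0.54 and 0.018. Both were highest in wild-type 2 and next highest in p300+/- 3, the arrays in which H2afy was lowest. The log2 fold changes were -0.056 ± 0.27 and -0.18 ± 0.21 (SE), and the genotypes overlapped in both. The first changed sign without wild-type 2 (0.20) or p300+/- 2 (0.13) and with array weights (0.023), and the second was 0.0046 without wild-type 2. The suffix _x_at marks a probe set that the maker lists as able to bind other transcripts.

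The probe sets of H2afv differed from each other. That named 1436596_at followed H2afz, with -0.025, 0.025 and 0.38 in p300+/- and -0.11, 0.39 and -0.051 in wild-type pools. Its high values were again those of p300+/- 3 and wild-type 2, and the log2 fold change was 0.049 ± 0.18 (SE). It was negative without p300+/- 3 (-0.079), wild-type 1 (-0.044) or wild-type 3 (-0.016). By contrast, 1428029_a_at varied little, at 0.13, 0.011 and 0.033 in p300+/- and -0.10, -0.011 and -0.085 in wild-type pools. All 3 p300+/- arrays were above the wild-type arrays, by a gap of 0.023. The log2 fold change was 0.12 ± 0.11 (SE), or 1.09-fold with a 95% interval of 0.916 to 1.29, and stayed positive with any array left out (0.088 to 0.15).

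H3f3b encodes H3.3, the replacement H3 variant, as does H3f3a. Its only probe set annotated to it alone, 1430357_at, read 0.034, -0.014 and -0.15 in p300+/- and -0.0018, 0.030 and 0.0018 in wild-type pools. Apart from p300+/- 3 all values lay close together, and the genotypes overlapped. The log2 fold change was -0.053 ± 0.11 (SE), with a 95% interval of -0.31 to 0.20, and was 0.010 without p300+/- 3 and wild-type 2.

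**Figure D2:**
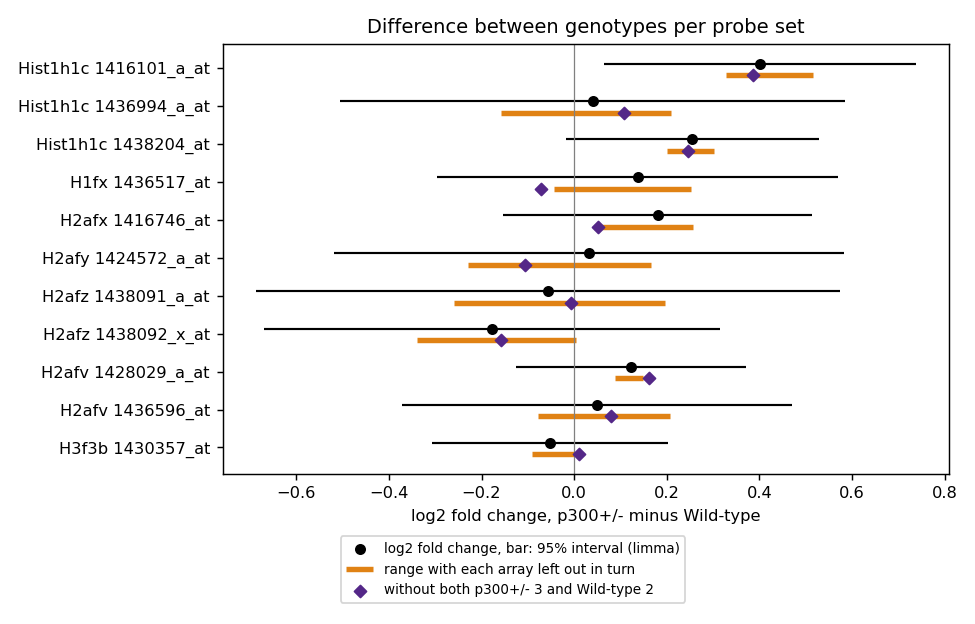
Log2 fold change (p300+/- minus wild-type) of each histone probe set, with its 95% interval from limma (black), the range when each array is left out in turn (orange) and the value without both p300+/- 3 and wild-type 2 (purple). The orange range stays above 0 for 2 probe sets of Hist1h1c, for H2afx and for 1428029_a_at of H2afv.

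Variation between arrays of a genotype (SD) exceeded the difference between genotypes in 7 of the 11 probe sets. The pooled within-genotype SD was largest for H2afz, at 0.42 in 1438091_a_at, which was above 92.1% of the probe sets in its level class. It was 0.36 for H2afy, at 86.6%. The smallest was 0.055 for 1428029_a_at of H2afv, above only 1.77% of its class, and H3f3b followed at 0.068, above 3.26% of its class. For the 9 histone probe sets in the highest class the median SD was 0.26, beside 0.20 for all probe sets in it. For the 2 in the class of 4 to 8 it was 0.083, below the 0.201 of all probe sets there.

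Several of the H2A variant probe sets had their extreme values in p300+/- 3 and wild-type 2, the arrays that stood apart on the whole array. In these 2 arrays H2afz (0.33 to 0.64 over both probe sets) and 1436596_at of H2afv (0.38 and 0.39) were high while H2afy (-0.37 and -0.68) was low. In the other 4 arrays the same probe sets lay between -0.30 and 0.11. The probe set 1436994_a_at of Hist1h1c, which spread over 0.80, was near its median in both of them (-0.048 and 0.048). As 1 of these arrays is p300+/- and the other wild-type, the pattern crosses the genotypes. Proliferation genes also averaged 0.16 in p300+/- 3 and 0.18 in wild-type 2, against -0.054 to -0.013 in the other arrays, and replication-dependent core histones 0.13 and 0.20, against -0.15 to -0.0013. Dentate granule markers were low in p300+/- 3 (-0.39) and near the others in wild-type 2 (-0.055). Microglia markers averaged 0.21 and 0.16 in these arrays, against -0.15 to -0.0016 in the others. GABAergic neuron markers averaged 0.31 and 0.11, against -0.10 to 0.064. Blood markers were at 0.61 and 0.17, and the highest of the other arrays was at 0.16. Pyramidal neuron markers were lowest in these arrays (-0.11 and -0.15, against -0.072 to 0.047), as were endothelial markers (-0.10 and -0.25, against 0.015 to 0.29). Oligodendrocyte markers went in opposite directions in them (0.14 and -0.25, against 0.0021 to 0.066). Astrocyte markers, at -0.0020 and -0.061, lay within the range of the other arrays (-0.086 to 0.085). Over all genes, each read by its reference probe set, the means were 0.057 and 0.040, against -0.033 to -0.0072. Over all tested probe sets they were not raised, at -0.0042 and -0.0019, against -0.0036 to 0.011. In the highest level class they were -0.0083 and -0.027, against -0.010 to 0.012. What part any of these has in the values of H2afz, H2afv and H2afy was not tested.

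**Figure D3:**
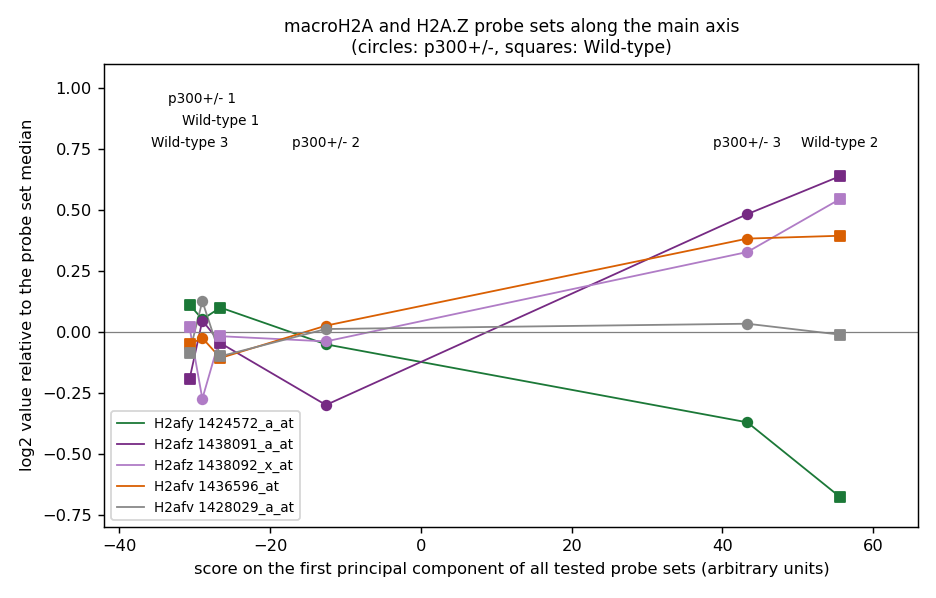
Log2 values of the macroH2A1 and H2A.Z probe sets (vertical axis) against each array's score on the first principal component of all tested probe sets (horizontal axis, arbitrary units), with lines joining the arrays in order of score. H2afy is lowest and both H2afz probe sets and 1436596_at of H2afv are highest in p300+/- 3 and wild-type 2, while 1428029_a_at of H2afv stays between -0.10 and 0.13.

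The genes whose values most resembled those of a member were ranked by Pearson's r over the 6 arrays among the single-gene probe sets. Since 2 of the arrays stand apart, a high r can rest on them, and the values are given only as a description. For Hist1h1c (1416101_a_at) the closest was Mknk1, a kinase of the translation factor eIF4E (r = 0.992), followed by Wdr4 (0.987) and Sh3d19 (0.981), and 45 probe sets had an r above 0.95. For H2afy the closest were Trpc4ap, Pura, a single-stranded nucleic acid binding protein, and Dok7 (r = 0.9998, 0.998 and 0.997), with 595 probe sets above 0.95. H2afz (1438091_a_at) was closest to the SNARE gene Vti1b, the receptor gene Epha2 and Ss18l2 (0.9996, 0.9996 and 0.998), with 575 above 0.95. For H2afv (1436596_at) the nearest were Tex13b, Wdr38 and the mitochondrial ribosomal protein gene Mrpl39 (0.998, 0.997 and 0.997), with 944 above 0.95. H2afx was nearest to the choroid plexus genes Kl (0.997) and Clic6 (0.995) and to Mchr1 (0.996), all lowest in wild-type 2 (-2.13, -3.81 and -0.41). For H1fx the nearest were Polr2a, the large subunit of RNA polymerase II, Scamp2 and Rabl6 (0.996, 0.994 and 0.992). H3f3b was nearest to Smarcd2, a subunit of the SWI/SNF chromatin remodeller, Osbpl6 and Pcmtd1 (0.995, 0.992 and 0.991). An r above 0.95 was reached by 226 probe sets for H2afx, 168 for H1fx and 44 for H3f3b.

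The remaining histone genes gave no called difference. Of 13 other linker histone and variant genes 5 were higher and 8 lower in p300+/-, with a median log2 fold change of -0.013, and 0 passed in either direction (limma, adjusted p under 0.05), nor did any have an unadjusted p under 0.05. The smallest p belonged to Cenpa, the centromeric H3 variant, at 0.22 ± 0.14 (SE), and H1f8, the oocyte linker histone, at 0.14 ± 0.13. H3f3a, the other H3.3 gene, was at -0.072 ± 0.16, and Macroh2a2, the relative of H2afy, at 0.12 ± 0.13. Their reference probe sets were both in the level class of 4 to 8, and that of Macroh2a2 carried the suffix _x_at. Replication-dependent core histone genes were measured for 7 of 59 names, of which 5 were higher, with a median of 0.10 and 0 called or at an unadjusted p under 0.05 (limma). That median was -0.022 without p300+/- 3, 0.044 without wild-type 3, 0.045 without wild-type 1 and 0.20 without wild-type 2. The core H3 gene H3c7 was at 0.35 ± 0.19, with a low value in wild-type 3 (-0.62), and was at 0.14 without that array. The core H2A gene H2ac19 was at 0.19 ± 0.11, with p300+/- values of 0.22, 0.043 and 0.11 above wild-type values of -0.052, -0.043 and -0.10.

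**Figure D4:**
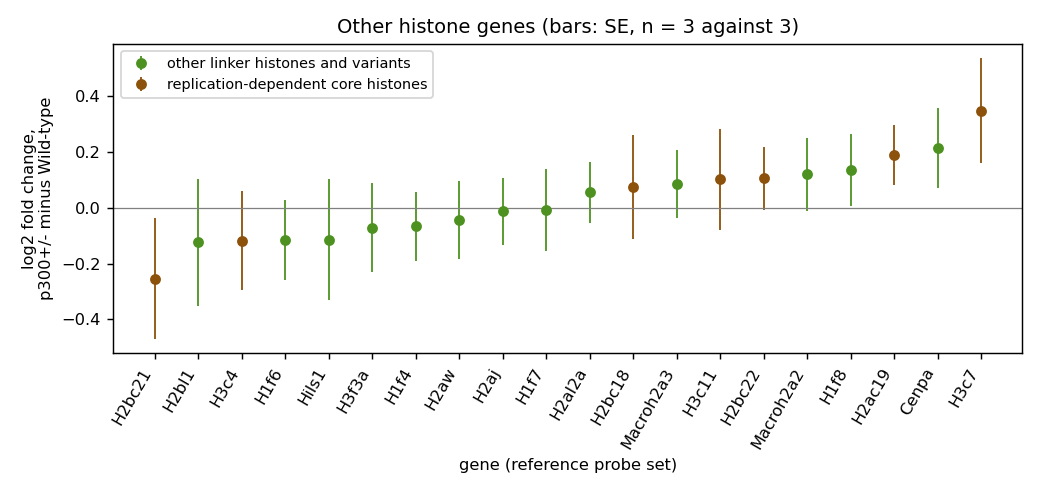
Log2 fold change (p300+/- minus wild-type, vertical axis) of the 13 other linker histone and variant genes (green) and the 7 replication-dependent core histone genes (brown), each read by a single reference probe set, with bars for the SE from limma (n = 3 against 3). The values run from -0.25 for H2bc21 to 0.35 for H3c7, and no gene was called.

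Genes that place, exchange or supply histones gave no called difference. Among 39 histone chaperones and exchange factors 19 were higher and 20 lower, with a median log2 fold change of -0.0037. None was called, and 1 had an unadjusted p under 0.05 (limma), namely Spty2d1, a chaperone of H3 and H4, at 0.39 ± 0.17 (SE). Over all genes, each read by its reference probe set, the share was 0.863%. The list's count was 0 with median centring, robust moderation or the lowest level class removed, and without p300+/- 1 or any 1 of the wild-type arrays. The p300+/- values of Spty2d1, 0.23, 0.53 and 0.020, lay above the wild-type values of -0.020, -0.036 and -0.34. Nap1l1, a chaperone of H2A and H2B, was at -0.26 ± 0.14. Of 16 genes for the processing and transcription of histone messages 5 were higher and 11 lower (median -0.063, beside 55.9% higher and a median of 0.019 over all genes, 0 called, 0 at an unadjusted p under 0.05, limma). Those with the smallest p were the cleavage factor genes Cstf2 at -0.15 ± 0.14 and Cpsf2 at -0.16 ± 0.16. Of 26 proliferation genes 11 were higher and 15 lower (median -0.032, 0 called, limma). That median was positive without wild-type 2 (0.031), p300+/- 2 (0.025) or p300+/- 1 (0.0025), and was -0.068 without wild-type 1, -0.065 without p300+/- 3 and -0.062 without wild-type 3. In that list Ccnb2, the gene of cyclin B2, was at -0.29 ± 0.12 and had the only unadjusted p under 0.05 (limma), and Mcm5, a subunit of the replicative helicase, was at 0.23 ± 0.11. In both of these the genotypes did not overlap, as was the case for 4 of the 26 genes, beside 4.94% of all genes. No proliferation gene had an unadjusted p under 0.05 with the replicate block, the lowest level class removed, or without wild-type 2, wild-type 3 or any 1 of the p300+/- arrays.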

How the data were processed

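Hippocampal RNA was hybridized to 6 Affymetrix Mouse Genome 430 2.0 arrays. Per the labels' protocols, the authors processed and normalized the data in GeneSpring GX. The sources used here do not state its version, the summarization or any filter. The deposited values, read here as log2, are centred on each probe set's median over the 6 arrays. Base 2 is not stated. It was taken from the values' binary number format, which shows the range of levels but cannot fix the base of the logarithm. Folds depend on it. The same format gave the level class of each probe set (log2 of 2 to 4, 4 to 8 or 8 to 16). Depth has no counterpart on arrays, and the number of arrays limits the precision. Of 45101 probe sets, 64 controls were left out. Of the 45037 tested, 34945 had 1 gene symbol, 932 several and 9160 none. Symbols were updated by gene identifier through RefSeq (GRCm38.p6; 34741 matched).

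All probe sets were fitted with limma 3.58.1 in R 4.3.3 (lmFit, eBayes; p300+/- minus wild-type; no covariates; two-sided; Benjamini-Hochberg over all probe sets). The fit was also run on simulated noise independent between arrays, a setting unlike these data, in which 2 arrays stood apart. Lists were read by a reference probe set per gene: highest level class, then suffix (_at, _a_at, _s_at, _x_at), then file order. Named were all member probe sets, Ep300, called list genes or else the 2 with the smallest p, and the 3 probe sets most like each member's reference probe set. H3f3a, Macroh2a2 and H2bc21 were chosen after their values were seen. The members and lists were chosen with earlier results of these data known. Alternatives comprised quantile normalization, median centring, array weights, a block for the replicate number, robust moderation, filters on level class and suffix, a threshold of 0.1, the probe set per gene and each array left out. Figures were drawn with matplotlib 3.10.9.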

Additional observations from a re-analysis of the deposited data

How the results depend on the processing

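The number of called probe sets was 0 over the whole array, the members and the 5 gene lists under every alternative run (limma). The unadjusted count over all probe sets, 550, ran from 475 to 1151 with an array left out and was 1632 with array weights, 388 without the lowest level class and 419 without _a_at, _s_at and _x_at probe sets. In 18 of 148 alternative values of single histone probe sets the sign changed, and in none did the value move by more than the within-genotype SD. For much of the set that limit could not be passed, so it is no measure of robustness there. In groups of this size, leaving out an array cannot move the value by more than the SD. The replicate block, robust moderation and the filters on level class and suffix cannot change a value or its sign. No sign changed in 1416101_a_at and 1438204_at of Hist1h1c, H2afx or 1428029_a_at of H2afv. The members' median log2 fold change of 0.049 was 0.091 with array weights and 0.14 over the 5 probe sets left by the suffix filter, and ran from 0.079 to 0.17 with an array left out. The median of other linker histones and variants, -0.013, was 0.011 with array weights and ran from -0.039 to 0.044 with an array left out, that of chaperones (-0.0037) from -0.038 to 0.067. The list for histone messages (-0.063) was at -0.11 under the suffix filter, at 0 when each gene's probe sets were averaged, and ran from -0.11 to -0.028 with an array left out. The cause of these shifts was not tested.

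With the replicate number as a block, 0 probe sets were called and 604 had an unadjusted p under 0.05, with the members' median again at 0.049. Deviations of same-numbered arrays correlated at 0.61, -0.23 and -0.47 for numbers 1, 2 and 3. The highest correlation of p300+/- 2 was with wild-type 3 (0.37), and that of p300+/- 3 was with wild-type 2 (0.65). The replicate block does not model these differently numbered pairs, and what they share was not tested. Leaving out both p300+/- 3 and wild-type 2 was added after the data were seen. With 3 arrays a genotype, the 95% interval of the largest histone difference reached 0.34 to either side.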
